A study of Homo sapiens with 5 samples.

Results

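The 55 genes described here encode proteins that build the ribosome in the nucleolus, out of 20033 protein-coding genes in the annotation. They were chosen by name for that function, with earlier results of these data known. Each was searched for peaks of the transcription factors MYC and HSF1 within 1 kb of any of its annotated transcript start sites. The genes code for proteins that organize the nucleolus and transcribe ribosomal RNA (5 genes), for box C/D and box H/ACA ribonucleoproteins that modify it (4 genes each), for the small-subunit processome (15), for maturation of the pre-40S particle (6) and for assembly of the pre-60S particle (21). Many of them are long-known MYC targets, so a high share with a MYC peak was not independent of how such a list is drawn up.

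Binding was mapped by CUT&RUN, in which an antibody directs a nuclease to cut out the DNA under a bound factor, in proliferating OVCAR8 cells, a high-grade serous ovarian cancer line that the study chose because both MYC and HSF1 are amplified in it. There were 2 libraries with an antibody to MYC and 2 with an antibody to HSF1, all from unmodified cells with no drug or genetic treatment, and a control library with IgG, an antibody with no target in the nucleus, served as background for every peak list. The labels do not say whether the replicates were separate cultures. Between 8265647 and 10084407 fragments per antibody library, and 9306942 in the control, passed the filter, and the lists held 25646 and 13290 peaks for MYC and 6477 and 4492 for HSF1.

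Ribosome production starts with the transcription of ribosomal RNA by RNA polymerase I. The transcript is folded, modified at sites chosen by small nucleolar RNAs (snoRNAs), cut, and packed with ribosomal proteins into the precursors of the small and the large subunit. MYC, with its partner MAX, binds the E-box, whose preferred form reads CACGTG on both strands, and is known for driving the genes of this pathway in growing cells. HSF1 is the main activator of the heat shock genes and binds the heat shock element, a run of GAA units that alternate between the strands.

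Many of these genes had an E-box at the point where transcription starts. In the GRCh38 genome, 26 of the 55 genes (47.3%) held a CACGTG within 50 bp of the canonical start site, against 3.44% of all protein-coding genes and 5.15% of all genes with a MYC peak in both lists. The 26 genes had 1 such site each. Its centre lay between 20 bp upstream and 44 bp downstream of the start, with a median of 13 bp downstream, and in 19 of the 26 genes it was in the transcribed sequence. Among 84 other ribosome biogenesis genes outside the list, 19 (22.6%) held a site at that place. The window of 50 bp was chosen after the E-box positions in these genes had been seen, so its share is a description, and the share in RefSeq promoters, whose bounds were given, stands further on.

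The following 30-base windows show this start-site E-box, read 5′ to 3′ on the strand of the gene from GRCh38, with the E-box in capitals. The first 9 belong to genes with high MYC peaks and the last 3 to genes with lower ones, so that the same 6 bases can be seen at both ends of the range. Not all of the last 3 sites lay inside the strongest MYC peak of their gene. The EBNA1BP2 site was outside it in both lists, the FBL site in replicate 2 and the RRP9 site in replicate 1.
POLR1G, chr19:45406620-45406649, plus strand: cccctttggatcCACGTGgtctgcaacctg
IMP4, chr2:130342900-130342929, plus strand: ttctcccggaccCACGTGgaagcggcactc
PES1, chr22:30591880-30591909, minus strand: tccttggcagggCACGTGcgggaggaagtg
MRTO4, chr1:19251807-19251836, plus strand: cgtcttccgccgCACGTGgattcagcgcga
UTP4, chr16:69132621-69132650, plus strand: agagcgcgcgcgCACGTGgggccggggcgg
URB2, chr1:229626212-229626241, plus strand: gggtaccggtccCACGTGgtggggacgcgg
GNL3, chr3:52686026-52686055, plus strand: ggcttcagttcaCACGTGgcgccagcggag
NOC3L, chr10:94362903-94362932, minus strand: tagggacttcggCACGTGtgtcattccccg
WDR43, chr2:28894658-28894687, plus strand: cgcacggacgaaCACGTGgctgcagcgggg
RRP9, chr3:51941892-51941921, minus strand: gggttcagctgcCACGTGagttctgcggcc
FBL, chr19:39846356-39846385, minus strand: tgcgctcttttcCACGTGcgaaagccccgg
EBNA1BP2, chr1:43172231-43172260, minus strand: gcgattcggtggCACGTGgagccacggcgt

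Other genes carried their E-boxes further into the gene. NCL, which encodes nucleolin, a major RNA-binding protein of the nucleolus, had the most, with 5 in its MYC peak. All 5 lay in the first part of the gene, in intron sequence 473 to 711 bp downstream of the canonical start on the minus strand of chromosome 2, and are given in genomic order, so that the first is the farthest from the start.
NCL, chr2:231463758-231463787: accaggtaccccCACGTGgccgcgccgcct
NCL, chr2:231463783-231463812: ctgtgtttcgggCACGTGgtggcctaccag
NCL, chr2:231463840-231463869: ctggcaagccgaCACGTGgtgggccccgga
NCL, chr2:231463972-231464001: agcgcggcctgcCACGTGggccgcgccgcg
NCL, chr2:231463996-231464025: cgactcctgacgCACGTGcccgggagcgcg
DDX21, with the highest mean MYC fold enrichment of the 2 lists, had none near its start, and the nearest E-box to its summits was in an intron, 449 bp downstream of the start.
DDX21, chr10:68956604-68956633, plus strand: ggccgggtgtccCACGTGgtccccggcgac

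MYC peaks were present at nearly all of these genes. In replicate 1, 54 of 55 had a MYC peak within 1 kb of a start site (98.2%), against 55.3% of all protein-coding genes. In replicate 2 it was 52 of 55 (94.5%) against 41.2%, and the 52 were also those with a peak in both lists, against 40.1% of all genes. HSF1 peaks were rare: 7 genes had one in replicate 1 (12.7%, against 8.58% of all genes), 8 in replicate 2 (14.5%, against 6.85%), 5 in both lists (9.09%, against 3.49%) and 10 in either list (18.2%, against 11.9%). The 5 genes with HSF1 in both lists also had MYC in both, so 5 had a peak in all 4 lists, where 3.05% of all genes did. On average 45.5 more of the 55 genes had a peak in a MYC list than in an HSF1 list, and the lists of the 2 factors did not overlap in this count. The exact two-sided permutation test over the 4 libraries gave p = 0.333, the smallest value that 2 against 2 allows. The lists were also called at different thresholds, a p-value of 1e-10 for MYC and 1e-04 for HSF1, and with HSF1 also held to 1e-10 the difference was 51.5. A p from these libraries measures only the spread between them.

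**Figure D1:**
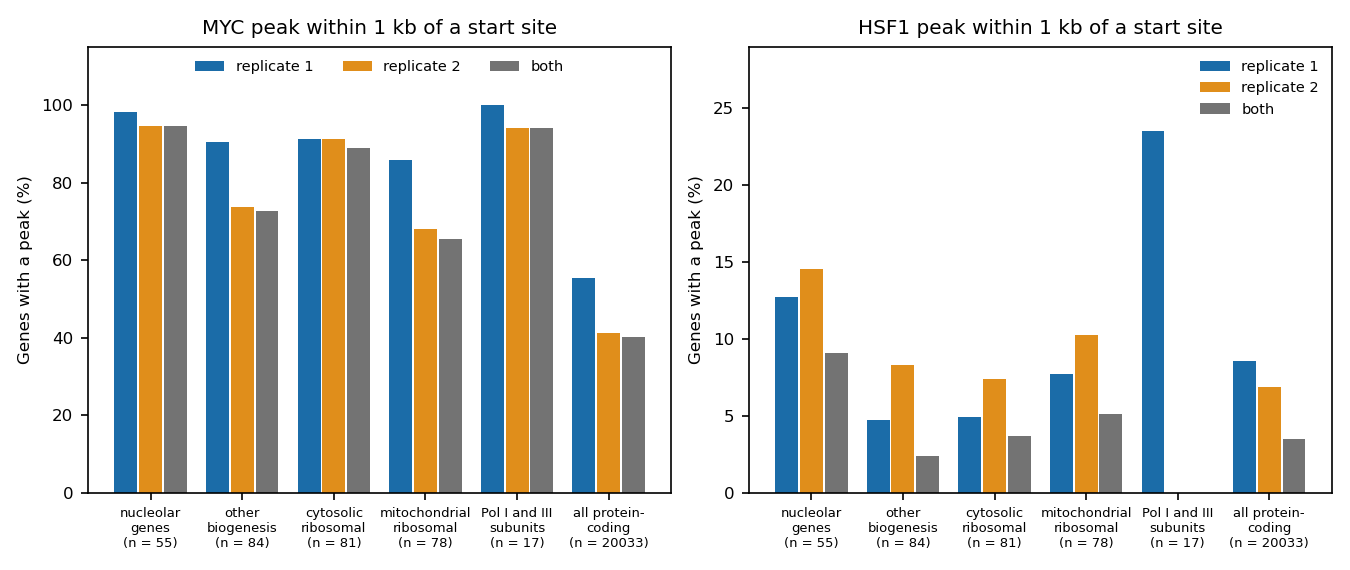
Share of genes with a MYC peak (left) or an HSF1 peak (right) within 1 kb of a start site, in percent, for each replicate list and for both lists, in the 55 nucleolar genes and 5 comparison sets. The 2 panels have different scales: 94.5% of the nucleolar genes had MYC in both lists and 9.09% had HSF1 in both, and of the RNA polymerase I and III subunit genes 23.5% had HSF1 in replicate 1 and none in replicate 2.

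The neighbouring gene sets of the same machinery ranged widely. Of the 17 subunit genes of RNA polymerases I and III other than POLR1G, 16 (94.1%) had MYC in both lists and 0 had HSF1 in both, although 4 (23.5%) had HSF1 in replicate 1. The 81 cytosolic ribosomal protein genes followed with 72 (88.9%) and 3 (3.70%). The 84 other ribosome biogenesis genes had 61 (72.6%) and 2 (2.38%), and the 78 mitochondrial ribosomal protein genes 51 (65.4%) and 4 (5.13%). These are counts of sets chosen with earlier results of these data known, and the differences between sets were not tested. The 2 other biogenesis genes with HSF1 in both lists were SENP3, which encodes a SUMO protease of the nucleolus, with a fold enrichment of 9.34 and 4.65 and a MYC peak in replicate 1 alone (14.8), and DDX49, a helicase gene, with HSF1 at 6.85 and 4.54 and MYC at 26.9 and 8.16.

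Promoter type moved with the MYC share, and its part in the share of the list was not tested. Of 8894 genes with a RefSeq promoter rich in CpG dinucleotides, 56.8% had MYC in both lists, against 40.1% of all 20033 protein-coding genes. The bases differ, since the 20033 include genes with no RefSeq promoter sequence. The share at the other RefSeq promoters is not given here. Of the 47 genes of the list with a RefSeq promoter sequence (250 bp before to 50 bp after the start), 41 (87.2%) were of this type, against 58.0% of all 15345 RefSeq promoters. Of those 41, 38 (92.7%) had MYC in both lists. Neighbouring starts are a further limit: 27 of the 55 genes had the start of another coding gene within 1 kb of theirs, so that a peak there cannot be given to 1 gene alone. The shares over all protein-coding genes are not given here for this count or the next, so neither can be called particular to the list. Of the 23 genes with no start of another coding or lncRNA gene nearby, some of which carry snoRNA starts, 21 had MYC in both lists and 2 had HSF1 in both. For MYC, the start nearest to the strongest summit was the gene's own at 44 of 54 genes in replicate 1 and 43 of 52 in replicate 2. For HSF1 it was so at 3 of 7 and 5 of 8. The shares over all genes are not given here for the nearest start either. The WDR74 summits, equally far from another gene's start, were not counted as its own.

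The height of a peak is given as the fold enrichment over IgG at its summit, a ratio. Among genes with a peak, the nucleolar genes stood in the upper part of the MYC lists. Their median fold enrichment was 19.6 in replicate 1 and 15.0 in replicate 2, against 14.6 and 11.7 for all genes with a peak. The fragments stacked at the summit (pileup) had medians of 46 and 42, against 31 and 28. The median nucleolar gene had a higher fold enrichment than 73.0% and 71.8% of all genes with a peak, and 13 of 54 and 15 of 52 were in the top decile. The IgG level that the ratio implies was low throughout, with medians of 1.24 and 1.63 fragments at these summits and 0.960 and 1.35 over all genes, so the denominators rested on very few fragments.

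**Figure D2:**
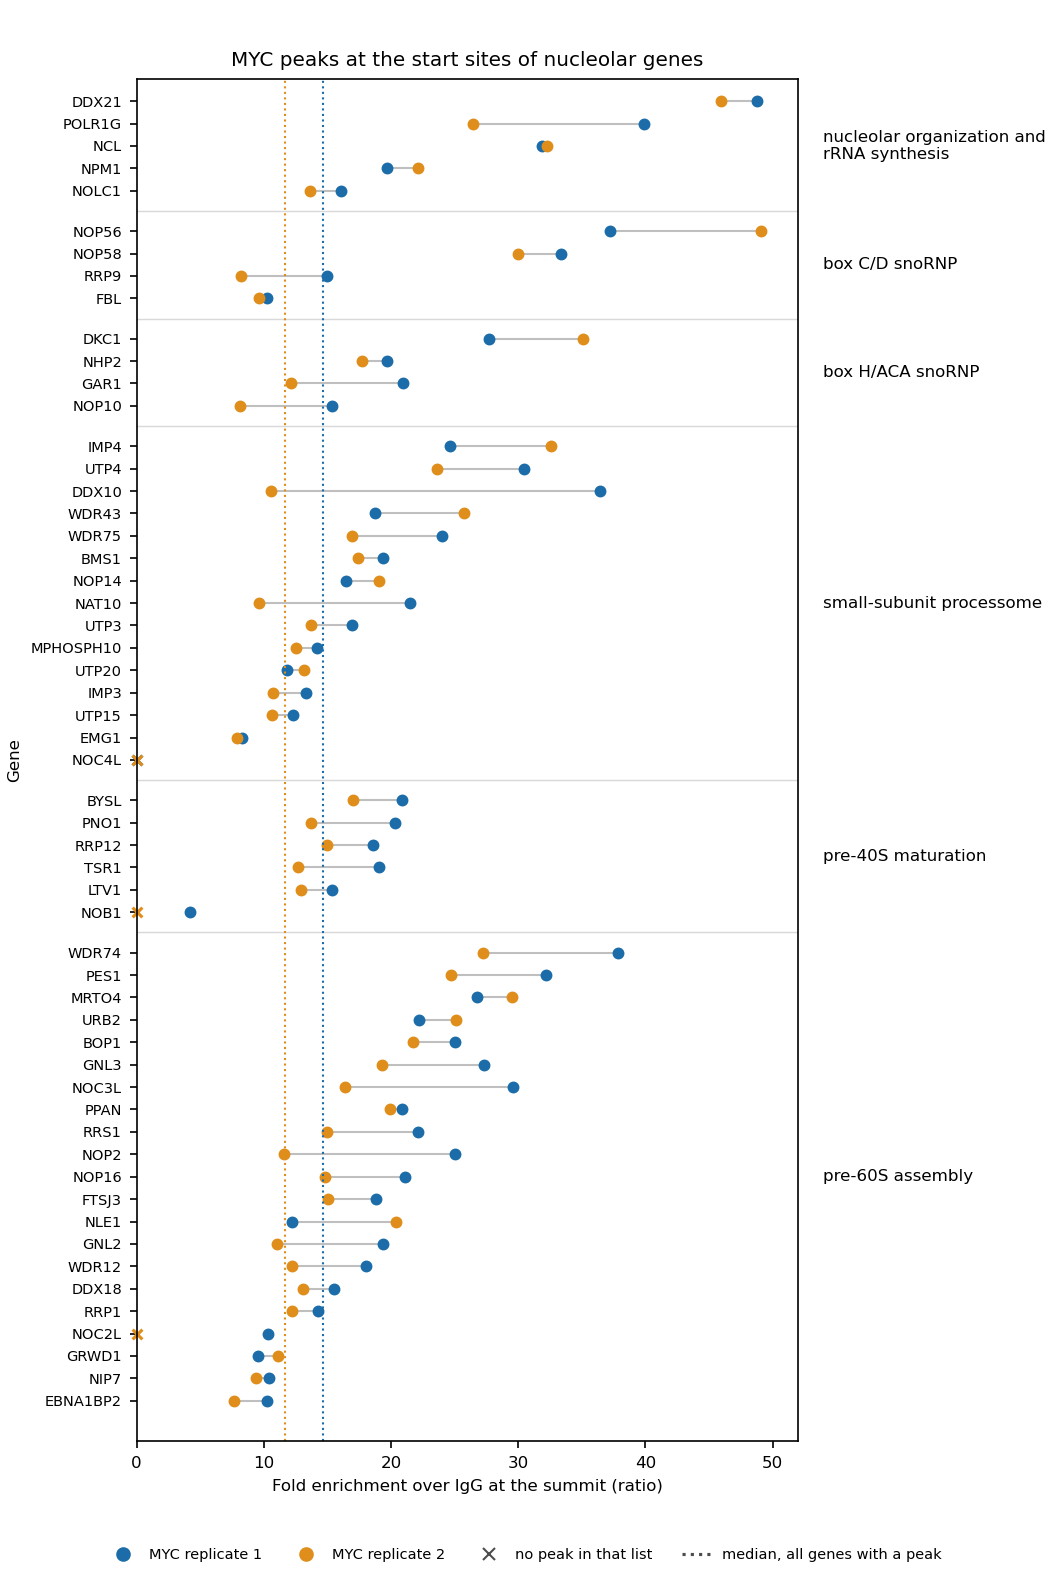
MYC fold enrichment over IgG at the strongest peak within 1 kb of a start site, for each of the 55 genes grouped by role, with replicate 1 in blue and replicate 2 in orange and a line joining the 2. A cross at 0 marks a gene with no peak in that list, and dotted lines give the medians over all genes with a peak, 14.6 and 11.7. DDX21 and NOP56 reach the highest values in the 2 lists, and DDX10 has the widest gap.

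The genes for nucleolar organization and ribosomal RNA synthesis had the highest MYC peaks as a group, with a median of 32.1 over the mean of both lists. DDX21, an RNA helicase that binds ribosomal RNA genes and snoRNAs, had the highest mean fold enrichment of all 55, with 48.8 in replicate 1 and 46.0 in replicate 2, where NOP56 was higher. The implied IgG level at its summits, 0.559 and 0.719 fragments, was at the lowest of each list. By mean pileup DDX21 (76.5 fragments) stood below WDR74 (99), NPM1 (86.5), NOP56 (85) and POLR1G (82). POLR1G, a subunit of RNA polymerase I, had 39.9 and 26.4, and NCL had 31.9 and 32.3. NPM1, nucleophosmin, had 19.7 and 22.1 although its pileups of 80 and 93 fragments exceeded those of DDX21 (75 and 78). NOLC1, a chaperone of snoRNA particles, was lowest in the group with 16.1 and 13.6. The POLR1G summits lay 369 and 706 bp upstream of its start, nearer to a start of its neighbour PPP1R13L than to its own.

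Box C/D particles carry out the 2′-O-methylation of ribosomal RNA, and their genes spanned nearly the whole range. NOP56 and NOP58, which encode the paired scaffold proteins of the particle, had 37.2 and 49.1 and 33.3 and 30.0. FBL, which encodes the methyltransferase fibrillarin, had 10.3 and 9.60 and was among the 5 lowest means of the list. RRP9, specific to the U3 particle, had 15.0 and 8.23, with both summits nearer to a start of PARP3 than to its own. The scaffold genes were thus higher than the enzyme gene in both replicates.

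Box H/ACA particles convert uridine to pseudouridine. The gene of their enzyme, DKC1 (dyskerin), had the highest peak of its group with 27.7 and 35.1. NHP2 had 19.7 and 17.8, GAR1 20.9 and 12.1, and NOP10, the smallest subunit, 15.4 and 8.16. The order of DKC1, NHP2 and NOP10 was alike in both lists, while GAR1 changed place with NHP2. By pileup GAR1 and NHP2 stood the other way round in each list, with 35 and 44 fragments for GAR1 and 45 and 37 for NHP2. The implied IgG level at the GAR1 summits was 0.720 and 2.71 fragments.

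The processome folds and cuts the part of the transcript that becomes 18S ribosomal RNA. Of its 15 genes, 14 had MYC in both lists, with a group median of 16.7. IMP4, a partner of the U3 RNA, had the highest mean with 24.7 and 32.5, followed by UTP4 with 30.4 and 23.6. In replicate 1 the IMP4 summit was nearer to a start of CCDC115 than to its own. MPHOSPH10 and IMP3, which code for the other 2 members of the IMP4 complex, had 14.2 and 12.6 and 13.3 and 10.7. EMG1, an RNA methyltransferase gene, had the lowest mean fold enrichment among genes with MYC in both lists, 8.28 and 7.93. Its pileups of 33 and 37 fragments were above the medians over all genes with a peak, 31 and 28. The implied IgG level at its summits was 3.11 and 3.79 fragments. Its summits were nearer to a start of PHB2 (44 and 113 bp) than to its own (89 and 408 bp). The remaining genes of the group with peaks in both lists had mean fold enrichments between those of IMP4 and EMG1. They were WDR43, WDR75, BMS1, NOP14, UTP3, UTP15, UTP20, NAT10 and DDX10, although DDX10 was the highest of the group in replicate 1.

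The 5 pre-40S genes with MYC in both lists had the narrowest range of means of the 6 groups, 14.2 to 19.0. BYSL had 20.9 and 17.1, and PNO1, RRP12, TSR1 and LTV1 had lower means. NOB1, the nuclease that makes the last cut of 18S ribosomal RNA, was the exception, with a peak in replicate 1 alone. Its fold enrichment was 4.24, lower than almost all other genes with a peak, although 39 fragments were stacked there. The implied IgG level at that summit was 8.44 fragments, the highest at any of these genes.

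For the pre-60S genes, 20 of 21 had MYC in both lists, with a median of 18.1. PES1, BOP1 and WDR12 encode the 3 subunits of the PeBoW complex, and their values stood in that order in both lists: 32.2 and 24.8 for PES1, 25.0 and 21.7 for BOP1, and 18.0 and 12.2 for WDR12. MRTO4, a relative of a ribosomal stalk protein, had 26.7 and 29.5, and the GTPase genes GNL3 and GNL2 had 27.3 and 19.3 and 19.4 and 11.1. At the low end were GRWD1 (9.55 and 11.1), NIP7 (10.4 and 9.40) and EBNA1BP2 (10.3 and 7.67). The GRWD1 pileups, 34 and 32 fragments, were above the medians over all genes with a peak, 31 and 28. The summit of EBNA1BP2 was 17 bp from a start of CFAP57 in both lists.

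WDR74 had the highest mean of the pre-60S group, 37.9 and 27.2. In both lists this peak took in the canonical start, but its summit lay far upstream. The summits were at -1978 and -2331 bp relative to the canonical start, 241 and 112 bp from an alternative start of WDR74. RNU2-2P, an snRNA gene of the U2 family, has a start at the same distances. U2 sequences occur in many copies, so reads there may be shared with near-identical copies. The height at this place cannot be given to WDR74 alone. A lower MYC peak, with its summit 7669 bp downstream of the canonical start, had 33.4 and 20.2.

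BOP1 shares its start region with the HSF1 gene itself on chromosome 8. The MYC peak at this shared region, 25.0 and 21.7, was higher than that of 87.2% and 91.7% of all genes with a MYC peak, and neither HSF1 list had a peak there. RRS1, which helps to place the 5S ribonucleoprotein in the large subunit, is also on chromosome 8 and had 22.1 and 14.9. Copy number, which raises the fragments from an amplified region in every library, was not measured in these files, and its part in these 2 values was not tested.

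Besides NOB1, 2 genes lacked a MYC peak in at least 1 list. NOC2L, a pre-60S factor gene, had a peak in replicate 1 alone, with a fold enrichment of 10.4 and a pileup of 16. NOC4L, of the processome, had no peak of either factor. Its start region is shared with DDX51, another biogenesis gene, which likewise had none in the 4 lists.

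The replicates agreed on where MYC was and less well on how high. At all 52 genes with MYC in both lists the peaks of the 2 replicates overlapped, and the summits were a median of 110 bp apart. Fold enrichment was higher in replicate 1 at 40 of the 52, as it was at 6511 of 8024 genes overall. The 2 values differed by more than 1.5 times at 10 genes and by more than 2 times at 3. These 3 were DDX10 (36.4 and 10.6), NAT10 (21.5 and 9.60) and NOP2 (25.0 and 11.6), a helicase, an acetyltransferase and a methyltransferase of ribosomal RNA. NOP10 and RRP9 came next. At DDX10 the pileup went from 84 to 26 fragments, whereas at NOP2 it was 48 and 42, so that the change at NOP2 was mostly in the IgG term. Across the 52 genes, which are not independent replicates, Spearman's rho between the lists was 0.697 for fold enrichment and 0.781 for pileup.

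Summits lay close to the start but seldom on the E-box. They were within 250 bp of the canonical start at 43 of 54 genes in replicate 1 and 40 of 52 in replicate 2. The share of all genes within 250 bp is not given here. The median distance was 136 and 174 bp, against 202 and 235 bp over all genes with a peak. In replicate 2, 32 of the 52 were downstream (61.5%, against 49.6% of all genes with a peak), and in replicate 1, 26 of 54 (48.1%, against 38.1%). A CACGTG lay within 100 bp of a summit of either MYC list at 16 of 52 genes (30.8%), against 11.8% of all genes with MYC in both lists. The count depended on the library, at 12 of 54 for the summits of replicate 1 alone (22.2%, against 7.62%) and 6 of 52 for replicate 2 (11.5%, against 6.53%). Taking the whole peak, 37 of 52 (71.2%) had one, against 33.4%, but peaks at these genes were also longer, with medians of 810 and 836 bp against 644 and 563. Per length, the peaks of the list held 0.915 E-boxes per kb and those of all genes 0.440. In RefSeq promoters, whose length is fixed, 20 of 47 (42.6%) held a CACGTG, against 8.89% of 15345.

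Of the 55 E-boxes in these MYC peaks, 43 (78.2%) were downstream of the canonical start, where over all genes with MYC in both lists 40.4% of the E-boxes were. In the first 200 bp downstream were 22 of the 55, against 8.21% of the E-boxes over all genes. The form with a C before and a G after the core, CCACGTGG, made up 12 of the 55 (21.8%), against 15.3%.

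**Figure D3:**
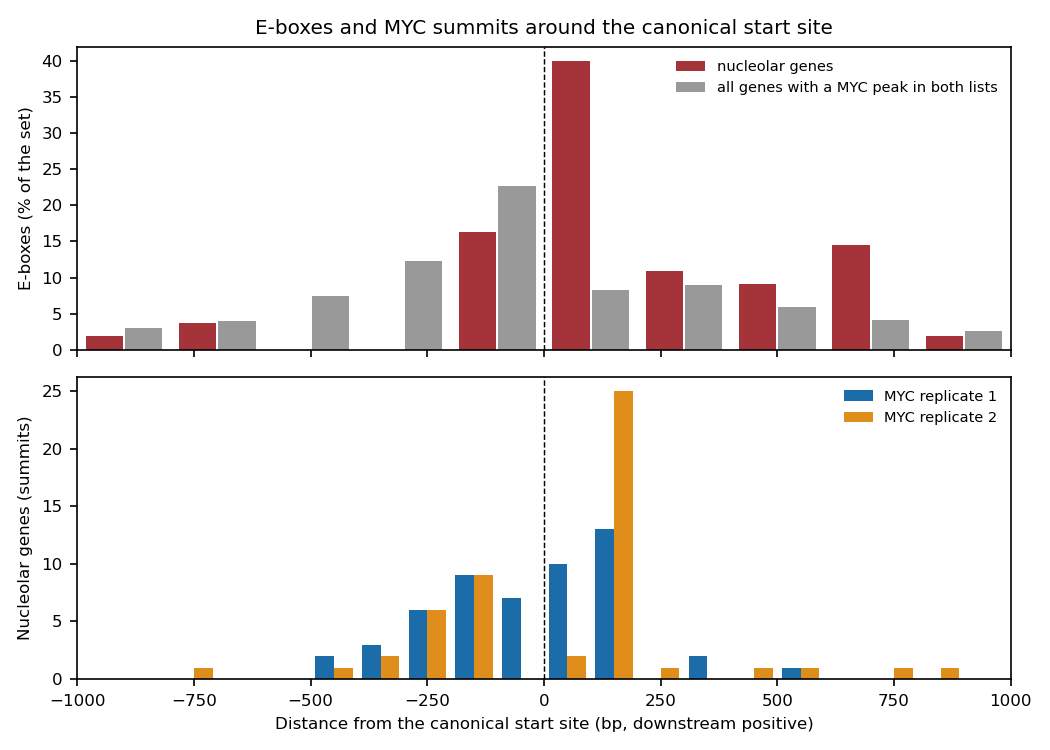
Top, E-boxes within MYC peaks by distance from the canonical start site in bins of 200 bp, as a percent of all E-boxes of the set, for the nucleolar genes (red) and all genes with MYC in both lists (grey). Bottom, number of nucleolar genes with a MYC summit at each distance, in bins of 100 bp, for replicates 1 and 2. The red bar just downstream of the start stands for 22 of the 55 E-boxes, where the grey one is at 8.21%, while summits lie to either side of the start.

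Genes with and without a start-site E-box covered much the same range of MYC height. The 26 genes with one had a median mean fold enrichment of 17.4 (range 8.98 to 33.2), and the 26 with MYC in both lists but without one had 18.2 (8.10 to 47.4). Over all genes with MYC in both lists the medians were 17.0 with and 14.3 without. DDX21, NOP56, WDR74 and NCL, 4 of the 5 highest by mean, had no E-box within 50 bp of the start, and EBNA1BP2 and FBL, among the 5 lowest, had one. The site at EBNA1BP2 lay outside its MYC peak in both lists. These comparisons are descriptions with no test, since genes are not replicates.

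HSF1 was found at few of these genes, and apart from NOP58 its fold enrichment there was 3.30 to 7.53. The gene with the clearest HSF1 peak was NOP58, with 9.17 in replicate 1 and 16.5 in replicate 2 and pileups of 23 and 31 fragments. It was the only gene of the list whose HSF1 peak passed a p-value of 1e-10 in both lists. The share of all genes that did so is not given here. Its HSF1 summits lay upstream of the canonical start, at -145 and -275 bp. The MYC summits at NOP58 were on the other side of the start, 135 and 154 bp downstream, and its E-box was further on, at 393 bp, in the first intron.
NOP58, chr2:202266141-202266170, plus strand: tgttacgtgtaaCACGTGgccccgccgttt
The HSF1 peaks, 652 and 1101 bp long, lay wholly inside the MYC peak.

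The other genes with HSF1 in both lists had lower peaks. WDR74 had 3.79 and 7.53, near the alternative start and snRNA start named above. WDR75, a processome gene, had 4.41 and 4.67, with summits 19 to 85 bp from those of MYC. Its HSF1 summits were nearer to a lncRNA start (81 and 147 bp) than to its own (239 and 173 bp). NOC3L, a pre-60S gene, had 3.82 and 3.61, with summits 7 to 63 bp from those of MYC. Their pileups were 6 to 17 fragments. By fold enrichment these peaks were below the median of all genes with an HSF1 peak, apart from WDR74 in replicate 2. That peak was higher than 76.2% of them and passed a p-value of 1e-10. All of these peaks lay at the places where MYC was much higher.

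WDR12 had HSF1 values of 6.50 and 4.16, but far from the place of its MYC peak. The HSF1 summits were at -102964 and -103078 bp relative to the canonical start, at an alternative start, and 29 and 30 bp from a start of another gene, NBEAL1. MYC also had a lower peak there, 12.2 and 9.14. With the canonical start alone, 3 genes kept HSF1 in both lists, NOP58, WDR75 and NOC3L, where 2.58% of all genes did.

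The other genes had HSF1 in 1 list. RRP9 (4.20) and IMP4 (3.30) had it in replicate 1, and NOP56 (5.71), DDX21 (5.21) and MPHOSPH10 (4.49) in replicate 2. The replicates disagreed on these genes, whose pileups were 7 to 13 fragments. Among all 10 genes, HSF1 and MYC peaks overlapped in 26 of the 30 pairs of lists with a peak of each, taking the strongest peak of each. The 4 pairs without overlap were those of WDR12, whose lower MYC peaks at the far start overlapped the HSF1 peaks. The median distance between summits was 101 bp. These pairs repeat the same 10 genes, and both peaks were required within 1 kb of a start, which favours overlap. The share over all genes with both factors is not given here, so the overlap cannot be called particular to these genes.

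**Figure D4:**
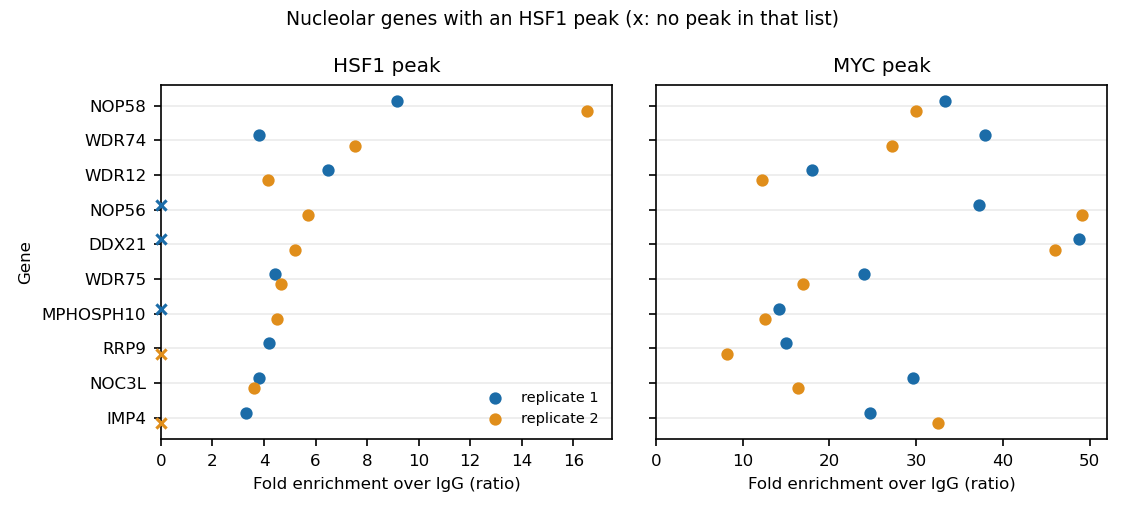
Fold enrichment over IgG at the 10 nucleolar genes with an HSF1 peak in either list, for HSF1 (left) and for MYC (right), with replicate 1 in blue and replicate 2 in orange and a cross at 0 where a list had no peak. The horizontal scales differ: HSF1 values run from 3.30 to 16.5 with NOP58 on top, and the MYC values of the same genes from 8.23 to 49.1.

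The share of these genes with HSF1 was near that of other MYC-bound genes. Of the 52 genes with MYC in both lists, 5 (9.62%) had HSF1 in both, against 7.61% of all genes with MYC in both. With HSF1 in either list the order turned, 10 of 52 (19.2%) against 24.6%. Where HSF1 was present, its peaks were not high: the median fold enrichment was 4.20 and 4.94, against 5.00 and 5.19 over all genes with an HSF1 peak. By role, the 5 genes with HSF1 in both lists were 1 of the box C/D particle, 1 of the processome and 3 of the pre-60S particle.

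Some of these genes also carry snoRNA genes. Within 1 kb of their start sites, 7 of the 55 had the start of a snoRNA gene: NCL, NOP56, NOP58, DKC1, TSR1, GNL3 and PPAN. A peak at these genes may count for both, and the files do not separate them. The share of all protein-coding genes with such a start is not given here.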

How the data were processed

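CUT&RUN peak lists from OVCAR8 cells (2 MYC, 2 HSF1) were analysed. Per the labels and methods, the authors aligned reads to GRCh38 (Bowtie 2) and ran MACS 2.2.9.1 on each library, not pooled, against 1 IgG library, which the file headers name as a second replicate, keeping duplicate fragments once and scaling the larger dataset down. The deposited values are the pileup (a signal: fragments stacked at a peak's top), −log10 of the p-value, and the fold enrichment (a ratio with a pseudocount of 1). No read counts per gene were used, so depth enters only through the library totals, and an IgG level was derived as (pileup + 1) / fold enrichment − 1.

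A gene counted as having a peak where a peak interval came within 1 kb of any GENCODE 44 transcript start, and its strongest peak by fold enrichment gave its values. The shares among all protein-coding genes stand beside the main counts. They are not given for neighbouring starts, for genes without them, for snoRNA starts or for the overlap of the 2 factors. Nor are they given for the nearest start, for summits within 250 bp, for the stricter thresholds or for the other windows. E-boxes were read from GRCh38 and from RefSeq promoters (47 of 55 genes matched by symbol). CpG-rich meant a GC content of at least 55% and a CpG ratio of at least 0.65. The 50 bp window around the canonical start was added after the E-box positions had been seen. The overlap code was tested on simulated peaks. Named genes were those without MYC in a list, those with HSF1 in either list, the 5 highest, the 5 lowest, the 5 with the widest gap between replicates, and the highest of each role. Further genes are named by role. The members and lists were chosen with earlier results of these data known. Alternatives were other windows, start sites, thresholds, motif rules and left-out libraries. Python 3.11.15, pandas 2.3.3, scipy 1.17.1 and pysam 0.24.0 were used. A motif in the HSF1 peaks is not reported here.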

Additional observations from a re-analysis of the deposited data

How the results depend on the processing

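Of 58 alternative values, 43 stayed within 1.5 times the reported count or within the spread between replicates, 15 moved and 0 reversed. Only the difference between the factors could have reversed, since a count, a median or a percentile cannot change sign. The count of genes with MYC in both lists stayed at 52 with the canonical start, with windows of 250 bp or 5 kb and with the summit required in the window, was 47 at a p-value of 1e-20 (FBL, EBNA1BP2, NAT10, NIP7 and NOP10 dropped out), and was 21 of the 23 genes with no start of another coding or lncRNA gene within 1 kb. HSF1 in both lists, and with it all 4 lists, changed most. It went from 5 to 3 with the canonical start, to 1 with HSF1 held to 1e-10, and to 10 with either list. Among those 23 genes it was 2. The counts among the 23 were tallied as moved, but they rest on 23 genes in place of 55. Leaving out 1 library gave 7 or 8 genes with HSF1 (8 without HSF1 replicate 1), 5 to 8 in all remaining lists, and 52 to 54 with MYC. The median percentile of the MYC peaks was 72.4 by fold enrichment and 75.7 by pileup. The E-box count near a summit rose from 16 to 37 over the whole peak and to 35 with CACGCG or CATGTG or CATGCG or CACGAG also counted (67.3%, against 48.4% of all genes), and was 12 and 6 with only the summits of MYC replicate 1 or 2 (range 6 to 12). The difference of 45.5 genes between the factors was the same with the replicate block, p = 0.5 by the exact test on lists paired by number, the smallest that 2 pairs allow, and the number alone does not show that the lists are paired. The HSF1 peaks at these genes rested on pileups of 6 to 31 fragments.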
